A study of Mus musculus with 59 samples.

Results

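The PAIR4-GFP-V8.7E allele, Igh P4GV, was compared with the unmodified Igh locus by VDJ-seq of pro-B cells, and VH gene usage was examined across all VH families and positions. The libraries were chosen by their genotype labels: 4 libraries labelled Igh P4GV/P4GV and the 4 Igh +/+ libraries of the same experiment, 8 of the 48 VDJ-seq libraries and of the 59 samples in the series. All came from pro-B cells sorted ex vivo from mouse bone marrow, an early stage at which the Igh locus is being rearranged. The Igh P4GV allele carries a large deletion in the distal part of the VH gene cluster, and at the deletion point it holds the PAIR4 element with a Gfp cDNA and polyadenylation sites in its second exon, followed by the VH8-7 gene and its V8.7E enhancer. The alleles were made by Cre-mediated insertion in ES cells on the C57BL/6 Igh allele. Libraries of Igh Δ890/Δ890, which has the same deletion with no insert (3 mutant and 3 Igh +/+ libraries), and of Igh P4V/P4V, which has the same deletion and the module with the cDNA of the PAIR4-derived transcript in place of Gfp (3 and 3), were used for comparison. The deletion is therefore common to all 3 mutant alleles, and the Igh +/+ controls lack both the deletion and the insert. By the study's own description each library came from the pro-B cells of a separate mouse, so n counts mice, although the values shared between libraries, given below, limit this for replicate 4.

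An immunoglobulin heavy-chain gene is assembled in pro-B cells from VH, DH and JH segments. A DH segment is first joined to a JH segment, and a VH gene is then joined to the DJH element. The RAG recombinase recognises a recombination signal sequence (RSS) beside each segment, made of a heptamer, a spacer and a nonamer. The distal VH genes depend on Pax5, the B cell commitment factor that promotes contraction of the locus, whereas the proximal VH genes lie close to the DH segments. PAIR elements are Pax5-activated intergenic repeats in the distal VH cluster that bind Pax5, E2A and CTCF, and the V8E elements are regulatory elements next to VH8 genes, of which V8.7E is the one in the insert.

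The Pax5-binding site of PAIR4, which the insert carries intact, and its mutant form, which the Igh P4ΔPax5GV allele of the series carries, are shown because the site belongs to the inserted element. Capitals mark the 9 bases that the mutation changes.
Pax5 site: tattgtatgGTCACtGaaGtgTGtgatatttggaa
Mutant Pax5 site: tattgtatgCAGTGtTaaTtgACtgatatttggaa
On mouse chromosome 12 (mm9) the 35 bases matched at 4 places, all on the plus strand. The match at chr12:116500696-116500730 lay 259 bases from the ChIP primer that is unique to PAIR4. The mutant sequence had no match there.

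The RSSs of the 6 distal VH genes upstream of the insertion are shown next, because they lie next to the insertion and include the 3 genes with the largest log2 changes, together with that of VH1-39 on the other side of the insertion. Each was read from the mm9 genome, 5′ to 3′ on the minus strand, on which all of these genes lie, just downstream of the VH coding segment. Capitals mark the heptamer and the nonamer.
VH1-80, chr12:117150516-117150554: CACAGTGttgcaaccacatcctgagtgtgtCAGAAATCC
VH1-81, chr12:117158451-117158489: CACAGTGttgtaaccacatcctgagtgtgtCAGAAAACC
VH1-82, chr12:117190710-117190748: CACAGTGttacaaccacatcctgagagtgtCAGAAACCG
VH1-83, chr12:117201989-117202027: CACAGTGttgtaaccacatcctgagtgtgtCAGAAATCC
VH1-84, chr12:117218874-117218912: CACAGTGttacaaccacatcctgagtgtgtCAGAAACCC
VH1-85, chr12:117238200-117238238: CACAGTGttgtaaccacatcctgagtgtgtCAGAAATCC
VH1-39, chr12:116152771-116152809: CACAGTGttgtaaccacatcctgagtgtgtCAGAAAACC
All 6 distal genes had the heptamer CACAGTG, which was found exactly in 69.3% of the 114 VH genes with an mm9 place. Only the first 17 bases after the annotated gene end were searched. Genes whose annotation ends earlier can be missed, so that share may be too low. Any pair of the 6 distal RSSs differed at 0 to 5 of 39 bases. VH1-83 and VH1-85 had the same RSS, and VH1-81 had the same RSS as VH1-39.

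Usage is given as the percentage of all unique joints, VDJH and DJH together, in a library, so the sum over VH genes is the percentage of VDJH joints. Joints were counted once by molecular identifiers, but the number behind each percentage is unknown. The smallest usage above 0 was 0.000695 to 0.00110% in the 8 libraries. Of 248 VH names listed in any of the 8 libraries, 238 were listed in all 8, of which 55 had no position and 183 had a position in the locus, 49 of them inside the deleted interval and 134 outside. Of these 134, 88 reached a mean usage of 0.01% and were tested, and 46 did not, of which 36 were at 0 in all 8 libraries.

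The libraries labelled replicate 4 here, 1 per genotype, came from a later run and need a caution. The deposited values of Igh +/+ replicate 4 were identical, at all 240 names, to those of a library labelled with the Igh P4ΔCtcfGV genotype, and the same held for Igh P4GV/P4GV replicate 4 and another library of that label. Igh P4ΔCtcfGV has the same deletion and insert with a mutated CTCF site. Igh +/+ replicate 4 used the deleted genes at 8.67% of joints, against at most 0.210% in the Igh P4GV/P4GV libraries, so its Igh +/+ label was kept. Igh P4GV/P4GV replicate 4 used the deleted genes at 0.210%, as a carrier of either allele would. VH8-7 made up 0.689% of its VDJH joints, the highest of the 4 Igh P4GV/P4GV libraries. It made up 0.296% in the third and last library labelled Igh P4ΔCtcfGV, whose values were in turn identical to those of a library labelled Igh +/+ in another experiment that used the deleted genes at 0.219%. Another library labelled Igh +/+ in that experiment used the deleted genes at 0.153% and had VH8-7 at 0.325% of VDJH joints. In the study's own comparison, loss of the CTCF site lowered VH8-7 recombination, and the VH8-7 share of Igh P4GV/P4GV replicate 4 was not low. With no Igh P4ΔCtcfGV library free of such sharing, the label of that library was still not settled. Results are therefore also given for 3 against 3 libraries.

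Genes of the deleted interval checked the labels. Without VH8-7, whose copy is in the insert, their summed usage was 6.97, 8.90, 9.09 and 8.67% in the 4 Igh +/+ libraries and 0.152, 0.205, 0.208 and 0.210% in the 4 Igh P4GV/P4GV libraries. The residual 0.194% ± 0.0277 (SD, n = 4) was led by VH1-64 (0.0731%), VH1-69 (0.0339%) and VH1-56 (0.0282%). These belong to the large VH1 family of close relatives, and whether reads of kept VH1 genes were assigned to them was not tested.

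VDJH joints made up 33.8, 42.6, 43.8 and 42.8% of all joints in Igh +/+ pro-B cells and 31.6, 34.8, 39.9 and 38.4% in Igh P4GV/P4GV pro-B cells. The groups overlapped, with means of 40.8% ± 4.65 and 36.2% ± 3.70 (SD, n = 4 each). The difference of -4.58 percentage points did not pass an exact two-sided permutation test (p = 0.2), for which 0.0286 is the smallest p that the 70 splits allow. With the 6 Igh +/+ libraries of the Igh Δ890 and Igh P4V experiments added it was -6.50 points and passed (exact permutation test, p = 0.0430). The sum of the deleted genes fell by 8.21 points, and that of the kept genes with a position was 3.85 points higher. This net value combined differences of 2.81 points in the middle, 1.71 in the distal and 0.557 in the intermediate genes with -0.965 in the proximal and -0.268 in the downstream flank genes.

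The 6 distal VH genes, VH1-80 to VH1-85, lie 23.9 to 112 kb upstream of the insertion and were used more in the presence of the Igh P4GV allele. Their summed usage was 1.06, 1.32, 1.39 and 1.34% in the Igh +/+ libraries and 2.82, 2.93, 3.17 and 3.03% in the Igh P4GV/P4GV libraries. Every Igh P4GV/P4GV library was above every Igh +/+ library. The means were 1.27% ± 0.149 and 2.99% ± 0.146 (SD, n = 4 each), a ratio of 2.35, and the difference reached the smallest p of the exact permutation test (p = 0.0286). As a share of VDJH joints only, the same genes went from 3.12% ± 0.0329 to 8.29% ± 0.487. With 3 against 3 libraries the difference was 1.72 points, where the exact test cannot go below p = 0.1.

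VH1-81, 31.8 kb from the insertion, had the largest log2 change of all 88 genes. Its usage was 0.435, 0.499, 0.506 and 0.504% in Igh +/+ and 1.37, 1.30, 1.37 and 1.25% in Igh P4GV/P4GV libraries. It went from rank 18 among the kept genes to rank 4, with no overlap between genotypes. The log2 change was 1.43 ± 0.10 (SE; limma, Benjamini-Hochberg adjusted p = 3.17e-07), and 1.47 with 3 against 3 libraries.

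VH1-82, 64.1 kb away, rose from 0.310, 0.361, 0.409 and 0.417% to 0.705, 0.785, 0.911 and 0.906% (log2 change 1.12 ± 0.13, adjusted p = 5.56e-05). VH1-80, the nearest of the 6 at 23.9 kb, rose from 0.162, 0.207, 0.256 and 0.208% to 0.417, 0.481, 0.511 and 0.460% (1.14 ± 0.14, adjusted p = 7.31e-05). Neither gene overlapped between genotypes.

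VH1-85, the farthest of the 6 at 112 kb, rose from 0.106, 0.106, 0.0980 and 0.0932% to 0.178, 0.203, 0.193 and 0.201% (log2 change 0.88 ± 0.12, adjusted p = 0.000169). Its libraries did not overlap either. VH1-84 had 0.0220, 0.0410, 0.0507 and 0.0311% in Igh +/+ and 0.0640, 0.0623, 0.0553 and 0.0799% in Igh P4GV/P4GV libraries. Its change of 0.74 ± 0.23 passed the test with all 8 libraries (adjusted p = 0.0279) and did not with 3 against 3 (0.61, adjusted p = 0.201). VH1-83 ranged from 0.0214 to 0.102% in Igh +/+ and from 0.0879 to 0.132% in Igh P4GV/P4GV libraries, with overlap, and did not pass (0.77 ± 0.33, adjusted p = 0.0963), but did as a percentage of VDJH joints (1.01, adjusted p = 0.0098). VH1-86, the seventh gene upstream, was at 0 in every library.

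Thus 5 of the 6 distal genes were called higher, against a background of 22.7% of the 88 tested genes called higher. The count was 6 of 6 as a percentage of VDJH joints and 4 of 6 without the later run. Their median log2 change was 1.00, against 0.023 over all 88 genes. Within the summed distal usage, the share of VH1-81 was 38.3% ± 2.03 in Igh +/+ and 44.4% ± 3.06 in Igh P4GV/P4GV libraries, and that of VH1-85 was 8.02% ± 1.40 and 6.48% ± 0.364. Neither difference passed correction over the 6 genes (exact permutation test, p = 0.0286, adjusted p = 0.0857 for both). The plot of the genes next to the insertion shows these levels library by library.

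**Figure D1:**
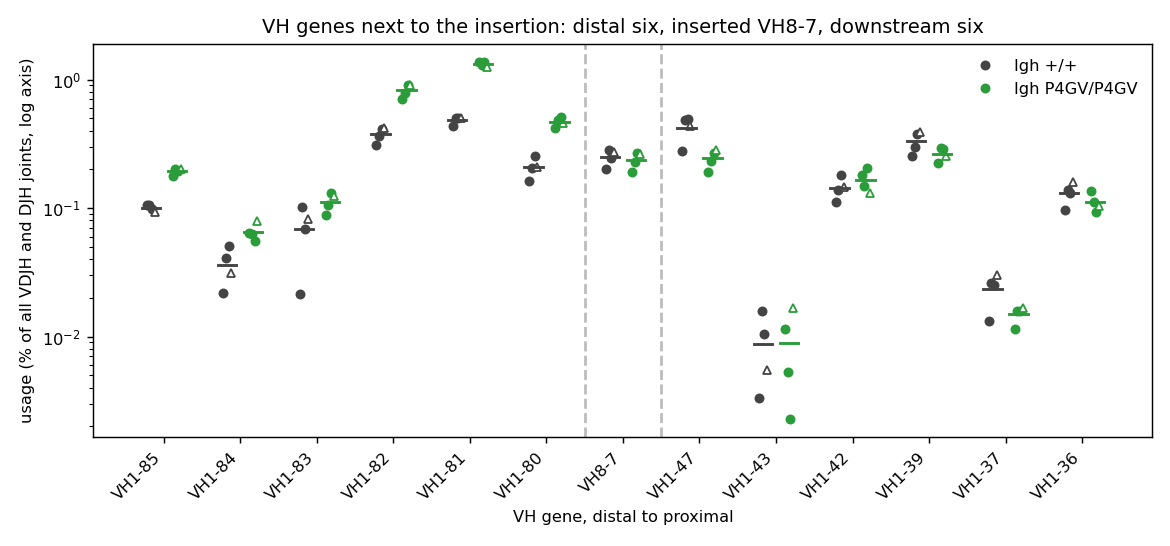
Usage of the 6 distal VH genes, of VH8-7 and of the 6 downstream VH genes in each library, as percent of all joints on a log axis. Circles are replicates 1 to 3, open triangles replicate 4 of the later run and bars the mean of 4 libraries. In 5 of the 6 distal genes every Igh P4GV/P4GV library lies above every Igh +/+ library, whereas VH8-7 and the 6 downstream genes overlap.

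VH8-7, the VH gene carried in the insert next to V8.7E, did not rise with the distal genes. It made up 0.594, 0.659, 0.561 and 0.640% of VDJH joints in Igh +/+ and 0.607, 0.650, 0.672 and 0.689% in Igh P4GV/P4GV libraries. The groups overlapped, with means of 0.614% ± 0.0442 and 0.655% ± 0.0355, and the difference of 0.0409 points did not pass (exact permutation test, p = 0.2). As a percentage of all joints the sign of the difference turned, from 0.250% to 0.238% (-0.0126 points, exact permutation test, p = 0.657). In Igh Δ890/Δ890 libraries, which have no VH8-7 gene, it was at 0 in all 3.

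The 6 VH genes on the other side of the insertion, VH1-47 to VH1-36, were not higher in sum. Their summed usage was 0.756 to 1.21% in Igh +/+ libraries (mean 1.06% ± 0.208) and 0.750 to 0.875% in Igh P4GV/P4GV libraries (0.809% ± 0.0510), and the difference did not pass the exact permutation test (p = 0.114). Igh +/+ replicate 1, the lowest of the controls at 0.756%, also had the lowest percentage of VDJH joints among them. Without that library the difference was -0.353 points (exact permutation test, p = 0.0286, the smallest the 35 splits allow). The log2 ratio of distal to downstream usage was 0.28 ± 0.14 in Igh +/+ and 1.89 ± 0.027 in Igh P4GV/P4GV libraries, without overlap (exact permutation test, p = 0.0286).

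VH1-47, 7.61 kb from the insertion and the nearest gene on the downstream side, was the only one of these 6 that passed the test. Its usage was 0.277, 0.488, 0.494 and 0.433% in Igh +/+ and 0.189, 0.232, 0.270 and 0.284% in Igh P4GV/P4GV libraries. Its log2 change was -0.75 ± 0.19 (limma, adjusted p = 0.00914), and it was -0.81 with 3 against 3 libraries (adjusted p = 0.0437). The lowest Igh +/+ library overlapped the highest Igh P4GV/P4GV library.

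The other downstream genes did not pass. VH1-39, 84.0 kb away, had 0.330% ± 0.0647 and 0.264% ± 0.0324, and VH1-42, 61.6 kb away, 0.144% ± 0.0277 and 0.166% ± 0.0329. VH1-36 had 0.132% ± 0.0265 and 0.111% ± 0.0176, and VH1-37 had 0.0236% ± 0.00727 and 0.0150% ± 0.00237. VH1-43 was below the filter, at 0.00876% and 0.00893%.

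Along the whole locus, 26 of 88 VH genes (29.5%) differed between genotypes (limma on log2(usage + 0.01), adjusted p under 0.05). Of these, 20 were higher (22.7%) and 6 lower (6.82%) in Igh P4GV/P4GV pro-B cells. The libraries of 23 genes (26.1%) did not overlap, 18 of them higher (20.5%) and 5 lower (5.68%). Since usage is a share, the denominator matters: as a percentage of VDJH joints alone, 39 of 94 genes passed, 34 higher and 5 lower, and the median log2 change moved from 0.023 to 0.17. Deleted genes without VH8-7 made up 8.41 of the 40.8 points of VDJH joints in Igh +/+ libraries. If nothing else changed, their loss alone raises the share of every kept gene on that scale. With 3 against 3 libraries 14 of 89 genes passed, 12 higher and 2 lower, and all 14 were among the 26. The count rested in part on single controls: it was 17 (15 higher, 2 lower) without Igh +/+ replicate 4 and 33 (19 higher, 14 lower) without Igh +/+ replicate 1.

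Whether the calls were spread unevenly over the positions was not tested. Over all 88 genes 22.7% were called higher and 6.82% lower. Over all genes 34 of 94 were higher and 5 lower as a percentage of VDJH joints. Without the later run 12 of 89 were higher and 2 lower. In the middle interval, VH1-1 to VH1-26 with the families among them, 10 of 30 tested genes were higher and 1 lower, with a median log2 change of 0.23. As a percentage of VDJH joints 17 of 33 middle genes were higher and 1 lower (median 0.32), and without the later run 7 of 31 were higher and 1 lower (median 0.14). In the intermediate interval 5 of 24 were higher and 3 lower (median 0.038), which became 9 higher and 3 lower of 25 as a percentage of VDJH joints (median 0.23) and 1 higher and 0 lower of 24 without the later run. In the proximal interval, nearest to the DH segments, 0 of 18 were higher and 1 was lower (median -0.15). As a percentage of VDJH joints 1 of 19 was higher and 0 were lower (median 0.0050), and without the later run 0 of 18 were called in either direction. In the downstream flank, VH1-27 to VH1-47, 0 of 10 were higher and 1, VH1-47, was lower (median -0.25, or -0.061 as a percentage of VDJH joints, where 1 of 11 was higher).

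**Figure D2:**
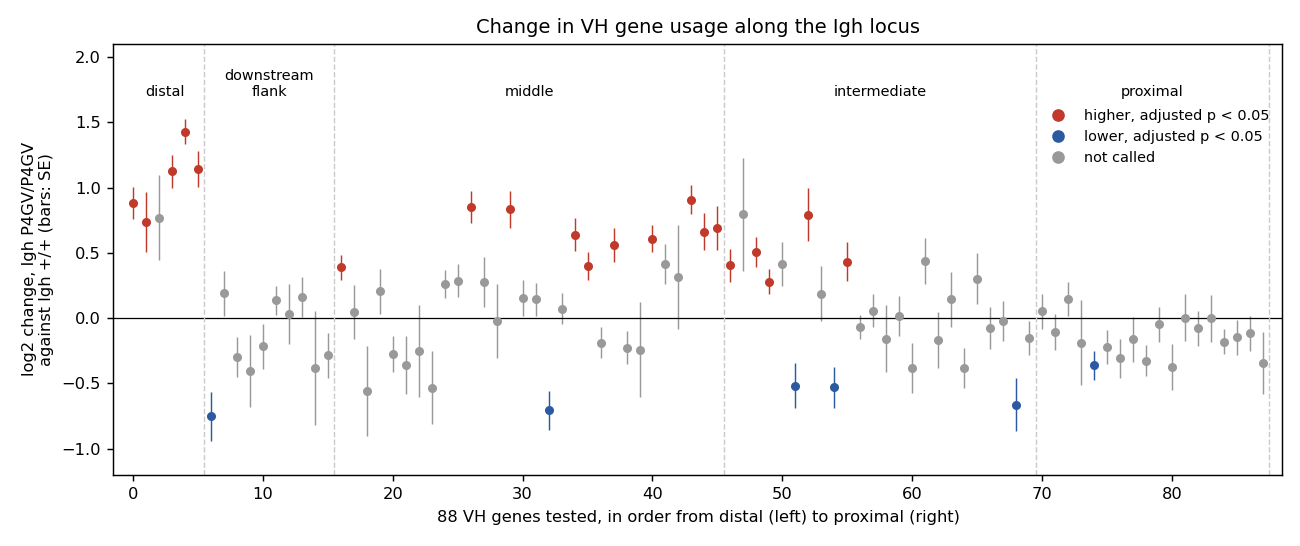
Log2 change in usage of the 88 tested VH genes in their order along the locus, with SE bars, and dashed lines between the intervals. Red genes are called higher (20), blue genes lower (6) and grey genes not called. The deleted interval lies between the distal and downstream flank groups.

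VH6-3, 607 kb downstream of the insertion, had the largest change outside the distal interval among called genes. Its usage was 0.300, 0.294, 0.361 and 0.343% in Igh +/+ and 0.616, 0.542, 0.647 and 0.661% in Igh P4GV/P4GV libraries. The log2 change was 0.91 ± 0.11 (adjusted p = 7.31e-05), with no overlap. With the deletion alone it changed by 0.35 ± 0.16 (Igh Δ890/Δ890 against its own Igh +/+ libraries, limma, adjusted p = 0.0468).

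Among the 10 kept genes with the highest wild-type usage, the 2 most proximal and most used did not pass. VH5-2, the most used gene of all, had 2.24, 3.26, 3.05 and 2.92% in Igh +/+ and 2.19, 2.56, 3.01 and 2.80% in Igh P4GV/P4GV libraries (log2 change -0.11 ± 0.13, adjusted p = 0.544). VH2-2 had 1.56% ± 0.265 and 1.40% ± 0.149 (-0.15 ± 0.13, adjusted p = 0.425). As a percentage of VDJH joints their changes turned to 0.055 and 0.022.

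VH1-26, the third most used gene, rose from 0.957, 1.02, 0.998 and 1.10% to 1.35, 1.22, 1.40 and 1.38% (0.39 ± 0.10, adjusted p = 0.00849). It was not called with 3 against 3 libraries (0.41, adjusted p = 0.0591). VH12-3 rose from 0.607, 0.814, 0.871 and 0.885% to 1.04, 1.25, 1.42 and 1.32% (0.66 ± 0.14, adjusted p = 0.00379). VH13-2 rose from 0.667% ± 0.137 to 1.08% ± 0.216 (0.69 ± 0.17, adjusted p = 0.00849), with overlapping libraries, and was not called with 3 against 3 either (0.61, adjusted p = 0.0908).

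VH10-1 rose from 0.624% ± 0.0755 to 0.927% ± 0.138 (0.56 ± 0.13, adjusted p = 0.00684). VH3-6 rose from 0.877% ± 0.00893 to 1.07% ± 0.104, just inside the threshold (0.28 ± 0.10, adjusted p = 0.0498), and was not called with 3 against 3 libraries (0.25, adjusted p = 0.259). VH1-18 (0.849% and 1.04%), VH1-11 (0.875% and 0.972%) and VH5-4 (0.928% and 0.818%) did not pass. As a percentage of VDJH joints VH1-18 (0.46, adjusted p = 0.000117) and VH1-11 (0.32, adjusted p = 0.00102) did.

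Of the genes called lower, VH15-2, 434 kb downstream of the insertion, had the smallest adjusted p. It was used at 0.389, 0.499, 0.461 and 0.524% in Igh +/+ and at 0.224, 0.255, 0.334 and 0.329% in Igh P4GV/P4GV libraries. The groups did not overlap (-0.70 ± 0.15, adjusted p = 0.00379), and the call held with 3 against 3 libraries (-0.72, adjusted p = 0.0263). With the deletion alone VH15-2 changed by -1.19 ± 0.17 (Igh Δ890/Δ890 against its own Igh +/+ libraries, limma, adjusted p = 2.67e-10).

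VH14-4 fell from 0.270% ± 0.0541 to 0.182% ± 0.0157 (-0.53 ± 0.15, adjusted p = 0.0228), and VH14-1 fell from 0.0874% ± 0.0216 to 0.0507% ± 0.00801 (-0.66 ± 0.20, adjusted p = 0.0279). VH2-9-1 fell from 0.335% ± 0.0339 to 0.258% ± 0.0107 (-0.36 ± 0.11, adjusted p = 0.0279), but not as a percentage of VDJH joints (-0.20, adjusted p = 0.259). None of these 3 calls held with 3 against 3 libraries, where the log2 changes were -0.54, -0.72 and -0.32 (adjusted p = 0.116, 0.102 and 0.201). The remaining called genes, named after their values were seen, were VH1-5, VH1-12, VH1-15, VH3-8, VH6-6, VH7-3, VH7-4, VH9-4 and VH10-3 among those higher and VH3-4 among those lower.

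Summed by interval, the middle genes were used at 8.83, 10.4, 10.8 and 10.6% in Igh +/+ and at 11.4, 12.2, 14.3 and 14.0% in Igh P4GV/P4GV libraries. The means were 10.2% ± 0.905 and 13.0% ± 1.41, and the groups did not overlap. The proximal sum was 9.96% ± 1.22 and 8.99% ± 0.767, and the intermediate sum 7.59% ± 0.972 and 8.14% ± 1.16, both with overlap. After adjustment over the 5 intervals, 0 passed the exact permutation test, since the smallest p, reached by the distal and middle sums (0.0286), became 0.0714. As percentages of VDJH joints 3 of 5 passed (adjusted p = 0.0476): distal, middle (25.0% to 35.9%) and intermediate (18.6% to 22.4%). The loss of the deleted genes by itself raises the kept sums on that scale, and the intermediate sum overlapped as a percentage of all joints.

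**Figure D3:**
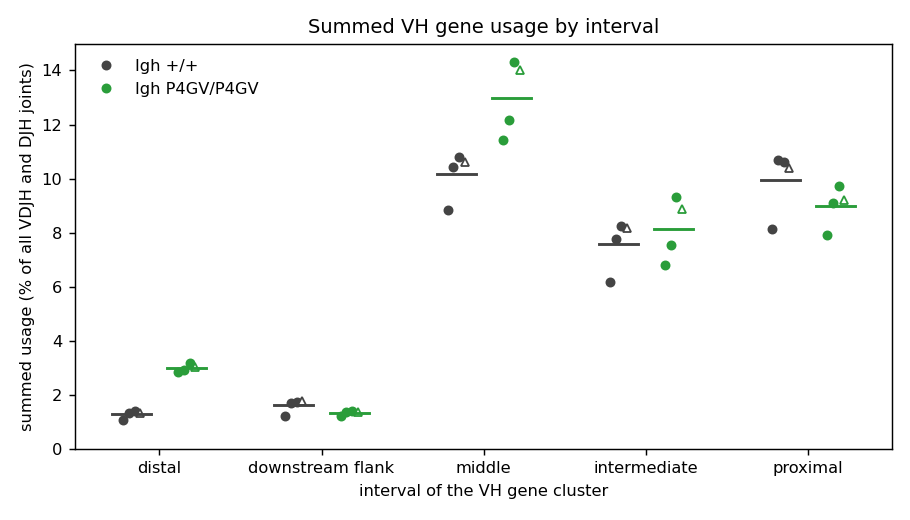
Summed usage of the VH genes in each of the 5 kept intervals, from distal to proximal, in each library as percent of all joints. Circles are replicates 1 to 3, triangles replicate 4 and bars the mean of 4 libraries. The distal and middle sums do not overlap between genotypes (1.27% and 2.99%, 10.2% and 13.0%), and the other 3 do.

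By family, the sums of 5 of 15 VH families did not overlap between genotypes. VH1, the largest family with 57 kept names, had 7.24, 9.02, 9.16 and 9.01% in Igh +/+ and 10.4, 10.5, 12.0 and 11.7% in Igh P4GV/P4GV libraries. Family VH6 had 0.803% ± 0.0768 and 1.31% ± 0.103, and family VH10 had 1.11% ± 0.0441 and 1.69% ± 0.228. Family VH12 had 0.918% ± 0.152 and 1.37% ± 0.201.

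Family VH15 was the only one of these 5 that was lower, with 0.468% ± 0.0586 and 0.285% ± 0.0547. Each of the 5 reached p = 0.0286 in the exact permutation test, and 0 of the 15 passed adjustment (adjusted p = 0.0857). Families VH2 (2.90 to 4.03% and 2.92 to 3.61%) and VH5 (5.24 to 6.69% and 5.03 to 6.20%), which hold the most used proximal genes, overlapped. As percentages of VDJH joints 11 of 15 families passed (exact permutation test, adjusted p = 0.0390), of which VH14 (2.01% to 1.62%) and VH15 (1.15% to 0.783%) were lower. The loss of the deleted genes by itself raises the shares of kept families on that scale.

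**Figure D4:**
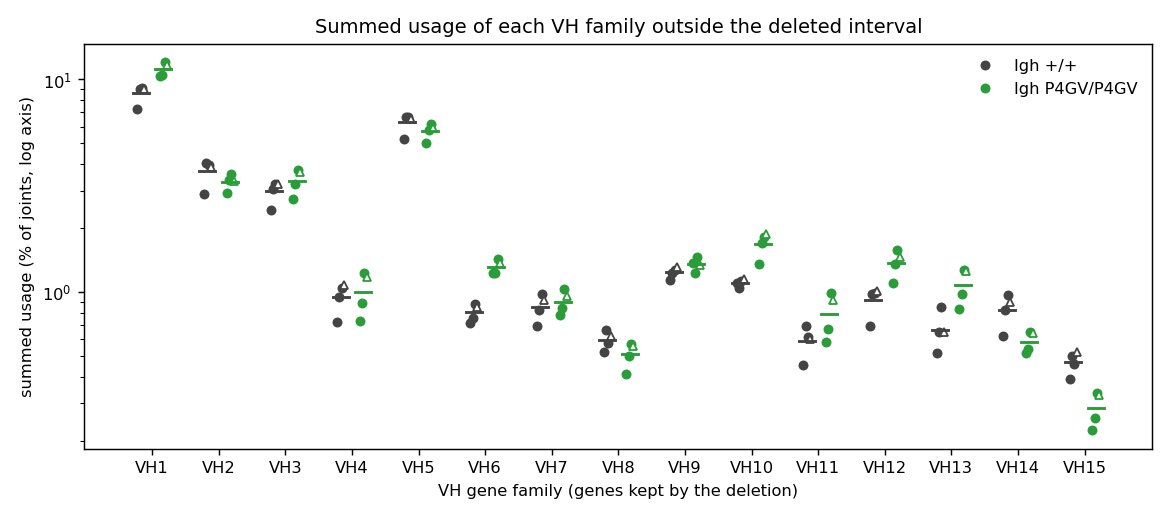
Summed usage of each VH family over genes outside the deleted interval, per library, as percent of all joints on a log axis. Circles are replicates 1 to 3, triangles replicate 4 and bars the mean of 4 libraries. VH1, VH6, VH10 and VH12 are higher and VH15 lower in Igh P4GV/P4GV libraries without overlap.

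Identical RSSs were shared by 24 tested genes in 11 groups, and the changes within a group had the same sign in 7 groups and both signs in 4. The spread of log2 change within a group was 0.00060 for VH14-2 and VH14-3, 0.23 at the median and 1.72 for VH1-81 and VH1-39. VH1-81 and VH1-39, which share all 39 bases shown above, had log2 changes of 1.43 ± 0.10 and -0.30 ± 0.15. VH1-83 and VH1-85, both distal and with 1 RSS between them, had 0.77 ± 0.33 and 0.88 ± 0.12. The pair with the next largest spread, chosen after its values were seen, lay in the middle interval (mm9, minus strand, capitals as above).
VH1-15, chr12:115895525-115895563: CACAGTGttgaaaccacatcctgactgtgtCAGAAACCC
VH1-23, chr12:116002622-116002660: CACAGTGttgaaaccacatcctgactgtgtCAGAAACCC
VH1-15 changed by 0.85 ± 0.12 (adjusted p = 0.000243) and VH1-23 by 0.20 ± 0.17 (adjusted p = 0.406). VH10-1 and VH10-3 also shared an RSS and both rose, by 0.56 and 0.64. These are descriptions of single pairs, and the differences within pairs were not tested.

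Comparison with the Igh Δ890/Δ890 allele addressed what the insert adds to the deletion. The summed usage of the 6 distal genes was 0.491% ± 0.109 in Igh Δ890/Δ890 and 1.34% ± 0.0938 in its own Igh +/+ libraries (n = 3 each), a ratio of 0.366, whereas the ratio for Igh P4GV/P4GV was 2.35. The ratio of the 6 downstream genes was 0.298 in Igh Δ890/Δ890 and 0.763 in Igh P4GV/P4GV, and that of all VDJH joints 0.658 and 0.888.

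In a single fit, the change of 18 of 88 genes (20.5%) differed between the 2 alleles (limma, adjusted p under 0.05), and all 18 were higher for Igh P4GV/P4GV. They included 6 of 6 distal genes, with differences of 1.81 to 2.95 on the log2 scale, and 7 of 10 genes of the downstream flank. VH1-81 changed by -1.09 ± 0.17 with the deletion alone and by 1.43 ± 0.10 with the insert (difference 2.51 ± 0.18, adjusted p = 4.26e-11). VH1-47 was at 0.188% in Igh Δ890/Δ890 and 0.539% in its own Igh +/+ libraries, and its change differed less (difference 0.75 ± 0.26, adjusted p = 0.0469). That call was lost without the later run (0.69, adjusted p = 0.0935) and as a percentage of VDJH joints (0.33, adjusted p = 0.306). Without the later run 17 of 89 genes differed, all higher and 16 of them among the 18, and the difference for VH1-81 was 2.56.

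Of the tested genes farther away, 4 of 30 in the middle, 0 of 24 in the intermediate and 1 of 18 in the proximal interval differed. VH1-26 was among them (difference 0.81 ± 0.17, adjusted p = 0.000906), but not as a percentage of VDJH joints (0.38, adjusted p = 0.0674). As percentages of VDJH joints the median difference over all genes went from 0.41 to 0.0071, and 16 of 94 genes passed, 10 higher and 6 lower. The 10 higher were again 6 of 6 distal genes and 4 of 11 of the downstream flank, while the 6 lower lay in the middle (2) and proximal (4) intervals. Without Igh Δ890/Δ890 replicate 2, 28 genes passed on the original scale, all higher. With the deletion alone, VH12-3 changed by 0.22 ± 0.10, VH13-2 by 0.35 ± 0.12 and VH10-1 by 0.44 ± 0.12 (SE). VH14-4 changed by -0.74 ± 0.19, VH14-1 by -1.02 ± 0.24 and VH2-9-1 by -0.58 ± 0.18. All of these had the direction seen with the insert, as had VH6-3 and VH15-2. VH1-26 (-0.42 ± 0.12) and VH3-6 (-0.056 ± 0.12) had the opposite direction.

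Comparison with Igh P4V/P4V, which differs in the cDNA within PAIR4, found no gene whose change passed the test. The count was 0 of 88 by limma, with 1 gene at an unadjusted p under 0.05. That gene was VH1-80, with a difference of 0.72 (95% interval 0.20 to 1.23, adjusted p = 0.720). For VH1-81 the difference was 0.35 (95% interval -0.05 to 0.76) and for VH1-82 0.15 (-0.29 to 0.60).

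The intervals leave room for differences of that size. Their median half-width over the 88 genes was 0.52 on the log2 scale. The ratio of summed distal usage to the allele's own Igh +/+ libraries was 2.35 for Igh P4GV/P4GV and 1.87 for Igh P4V/P4V, given as values with no test. The ratio for VH8-7 as a share of VDJH joints was 1.07 and 0.941.

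**Figure D5:**
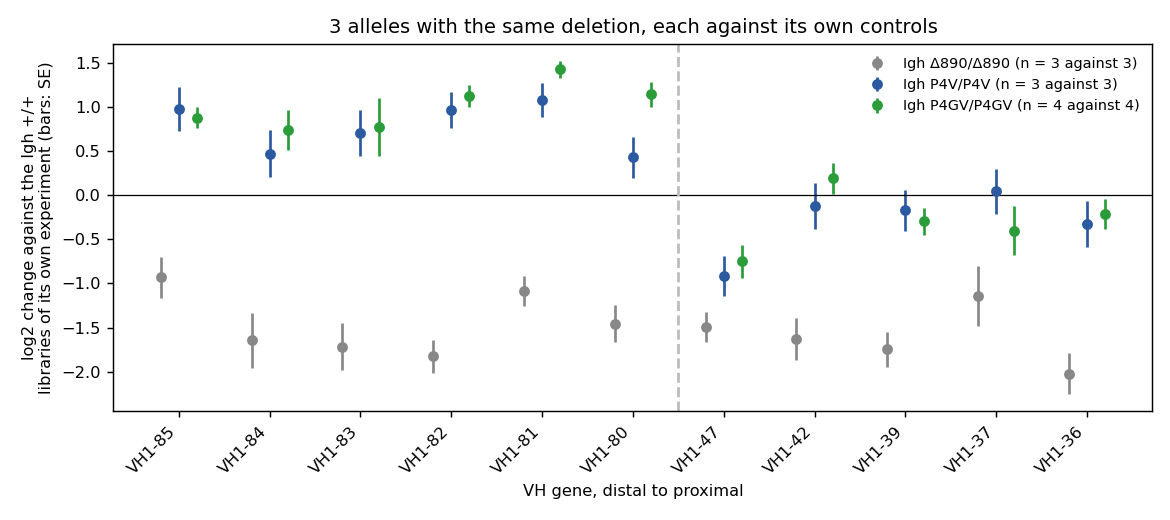
Log2 change in usage of the distal and downstream VH genes for 3 alleles with the same deletion, each against the Igh +/+ libraries of its own experiment, with SE bars. The Igh Δ890/Δ890 points are below 0 for all genes shown, and the Igh P4V/P4V and Igh P4GV/P4GV points are above 0 for the 6 distal genes. VH1-43 was not tested and is not shown.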

How the data were processed

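VDJ-seq libraries were prepared from sheared genomic DNA with JH-specific capture and molecular identifiers, per the labels. The authors counted unique joints per VH gene and deposited each VH gene as a percentage of all VDJH and DJH joints, so the deposited values are percent and hold no counts or depths, and the precision of single values is unknown. The submitters' processing notes list the mm9 and mm10 builds, and the build and aligner used for the VDJ-seq reads are not given in the sources used here. The VH cluster was divided by gene order into proximal (VH5-1 to VH5-19), intermediate (VH7-1 to VH8-1), middle (VH1-1 to VH1-26), downstream flank (VH1-27 to VH1-47), deleted and distal (VH1-80 to VH1-86) intervals. Replicates were numbered in accession order. VH names with no position (55 of the 238 listed in all 8 libraries) were left out of the main tests.

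Usage was transformed to log2(usage + 0.01), genes outside the deletion with a mean of at least 0.01% over the libraries of a fit were kept, and limma 3.58.1 (R 4.3.3, mean-variance trend) was fitted with Benjamini-Hochberg adjustment at 0.05. A fold change on this scale understates the change of low genes. Changes of different alleles were compared by an interaction term in a fit of both alleles, each with its own controls. Sums were compared by exact two-sided permutation tests (scipy 1.17.1). The fit was tested on simulated data, with 20 of 88 genes changed by 1 on the log2 scale. It recovered 91.3% of them in the comparison of Igh P4GV/P4GV with Igh +/+, with 3.92% of calls false. Recovery of smaller changes, which most called genes had, was not tested. Whether these rates hold where many genes of a library shift together, as in Igh +/+ replicate 1, was not tested. Genes named were the 6 distal and 6 downstream genes, VH8-7, the 10 most used kept genes in Igh +/+ and, in each direction, the 5 called genes with the smallest adjusted p whose libraries do not overlap (4 genes met this for lower usage). The genes, intervals and tests were chosen with earlier results of these data known. Alternatives were the VDJH denominator, other pseudocounts and filters, no trend, a run term, added Igh +/+ libraries, libraries left out and, added after seeing the data, names without a position. Shares within the distal sum were also added after seeing the data. RNA-seq files were not used here.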

Additional observations from a re-analysis of the deposited data

Results flagged for a closer look

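Samples far from the other 3 of their group were looked for in 106 groups of 4 libraries, and 11 were found. Chance gives about 1 in 20 for independent groups, but many of these groups are overlapping sums of the same libraries. Of the 11 flags, 8 were Igh +/+ replicate 1. That library was low in VDJH joints (33.8%), VH1-81 usage (0.435%), the proximal sum (8.13%), the downstream flank sum (1.21%) and the sums of families VH1 (7.24%), VH2 (2.90%), VH5 (5.24%) and VH12 (0.692%). The other 3 were Igh P4GV/P4GV values: VH14-4 in replicate 2 (0.158%), VH14-1 in replicate 1 (0.0387%) and VH2-9-1 in replicate 2 (0.274%).

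Among VH names with no position, which the comparisons above do not use, VH1S50 was higher in Igh P4GV/P4GV (mean 0.0352%) than in every Igh +/+ library (mean 0.0144%).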

How the results depend on the processing

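Of the 26 called genes, 14 were called under all 18 alternatives: VH1-12, VH1-15, VH1-47, VH1-80, VH1-81, VH1-82, VH1-85, VH6-3, VH6-6, VH9-4, VH10-1, VH10-3, VH12-3 and VH15-2. The count was 14 without the later run, 17 without Igh +/+ replicate 4 and 39 as percent of VDJH joints, and 17 to 33 over single libraries left out. For the sums, the distal difference was 1.72 points without the later run (p = 0.1) and 1.71 with splits within the run (p = 0.05), the smallest p each exact test allows, and 1.64 to 1.77 over libraries left out. The log2 ratio difference in the exact tests was 1.57 (p = 0.1), 1.61 (p = 0.05) and 1.58 to 1.67 in the same settings. The downstream difference was -0.282 points with the other Igh +/+ libraries added (exact test, p = 0.0110), and -0.353 to -0.201 over libraries left out. The VDJH difference was -6.50 points with those libraries added (exact test, p = 0.0430), and -6.89 to -3.06 over libraries left out. VH8-7 turned to -0.0126 as percent of all joints, and was 0.0235 to 0.0568 over libraries left out. With the VDJH denominator 3 intervals and 11 families passed, and VH5-2 and VH2-2 turned to 0.055 and 0.022. VH1-11 turned to -0.027 with the other Igh +/+ libraries added. In the comparison with Igh Δ890/Δ890 13 to 28 genes passed over libraries left out, and 0 in that with Igh P4V/P4V. Of the values for named genes under the alternatives, 423 kept direction and call, 36 lost the call, 5 gained it and 3 turned. The causes were not tested. No paired analysis was possible because the labels give no replicate numbers shared between genotypes. The unknown number of joints limits what can be said of genes near the filter.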

Other observations

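The names without a position add a few values on VH1 genes. Of 18 such names with a mean usage of at least 0.01%, 1 was higher and 3 were lower in Igh P4GV/P4GV libraries without overlap. VH1S5 was at 0.0445, 0.0313, 0.0458 and 0.0329% in Igh +/+ libraries and at 0 in 3 of 4 Igh P4GV/P4GV libraries, and VH1S56 was at 0.0201% on average and at 0 in all 4. VH1-87, the most used of these names, was at 0.435% ± 0.0972 and 0.408% ± 0.105. Where these genes lie relative to the deletion was not given in the sources used here.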
